A study of Lachancea kluyveri with 16 samples.

Results

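The genes described here were those whose transcript level in the budding yeast Lachancea kluyveri was lower in SEF1-VP16 cells than in wild-type (WT) cells on the arrays of both media, and they numbered 92 of the 5316 genes on the array (1.73%). They were chosen from the authors' table of log2 values. Each gene was represented by the brighter of its probes, by the mean of the 16 arrays, and a member had a mean SEF1-VP16 value at least 0.3 below the mean WT value where the label was YPD and also where it was YPGly, which is about 1.2-fold. In all, 95 genes met this threshold and 3 of them, including SEF1 itself, were among 7 loci left out by name. Both strain differences therefore chose the members, and they are given below as a description without a test. The 4 groups of 4 cultures were WT (strain JYL1897) and SEF1-VP16 (strain SkSef1VP16NB10-1), each in YPD, a rich glucose medium, and in YPGly, which holds glycerol instead. Both strains were MATa ura3. SEF1-VP16 was derived from JYL1897 and is 1 strain, in which the SEF1 gene at its own locus encodes Sef1 with the VP16 activation domain at its C-terminal end. Cells from overnight YPD cultures at 28 °C were diluted to 0.2 OD600/ml and harvested after 5.5 h at 30 °C. Their cDNA was hybridised to 1 single-colour array per culture.

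Sef1 is a zinc cluster transcription factor of yeasts. The activation domain of VP16, a herpes simplex virus protein, recruits the transcription machinery when it is fused to a DNA-binding protein, so such a fusion is used to raise the activity of the factor that carries it. Yeasts match the permeases of their plasma membrane and their carbon enzymes to the sugar at hand. Glucose represses genes for other carbon sources in Saccharomyces cerevisiae, the species from which the gene names and the roles below are taken. A name was held for 47 of the members and for 2533 of all genes.

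All 16 arrays held 10620 gene probes, of which between 94.5% and 99.95% were well above background, and no probe was saturated. All arrays labelled YPD lay on slide 1, all labelled YPGly were on slide 2, and within each slide the WT arrays were in row 1 and the SEF1-VP16 arrays in row 2. The medium cannot be told apart from the slide, nor the strain from the array row. The carbon markers went against the media named: the mean of 13 genes of non-fermentable carbon use (of which ICL1 is a member) lay between 1.88 and 2.69 on the 8 arrays labelled YPD and between -2.08 and -1.49 on the 8 labelled YPGly, in log2 units relative to the 75th percentile of each array. Media are therefore called by their label throughout. By strain, the mean of these 13 genes lay between 2.21 and 2.69 in WT and between 1.88 and 2.20 in SEF1-VP16 where labelled YPD. Where labelled YPGly it lay between -1.83 and -1.49 in WT and between -2.08 and -1.76 in SEF1-VP16. The part of these genes in the members' strain difference was not tested. The mean of 70 ribosomal protein genes lay between 1.79 and 2.51 on WT and between 2.33 and 2.57 on SEF1-VP16 arrays labelled YPD, and between 2.99 and 3.27 and between 3.18 and 3.50 where labelled YPGly; its part in the members' strain difference was not tested. SEF1 was measured well above background on every array. Its SEF1-VP16 minus WT difference was -0.39 (SE 0.10) where labelled YPD and -0.36 (SE 0.10) where labelled YPGly, so its transcript level does not check the fusion.

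The members were modestly lower as a rule. In the values of the rule their strain differences ran from -1.47 to -0.31 with a median of -0.44 where labelled YPD, which is 1.36-fold lower, and from -1.22 to -0.30 with a median of -0.42 where labelled YPGly, which is 1.33-fold lower. The median over all genes was 0.02 and 0.01. At least 1.5-fold lower were 24 members where labelled YPD, 21 where labelled YPGly and 12 in both. The members just inside the threshold were SAKL0H01122g (-0.31 and -0.30) and SAKL0H01210g (-0.34 and -0.30), and the genes just outside, by less than the rounding, were BPH1 (-0.39 and -0.30) and LEE1 (-0.30 and -0.58). For comparison, 156 genes were higher by 0.3 or more in both.

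**Figure D1:**
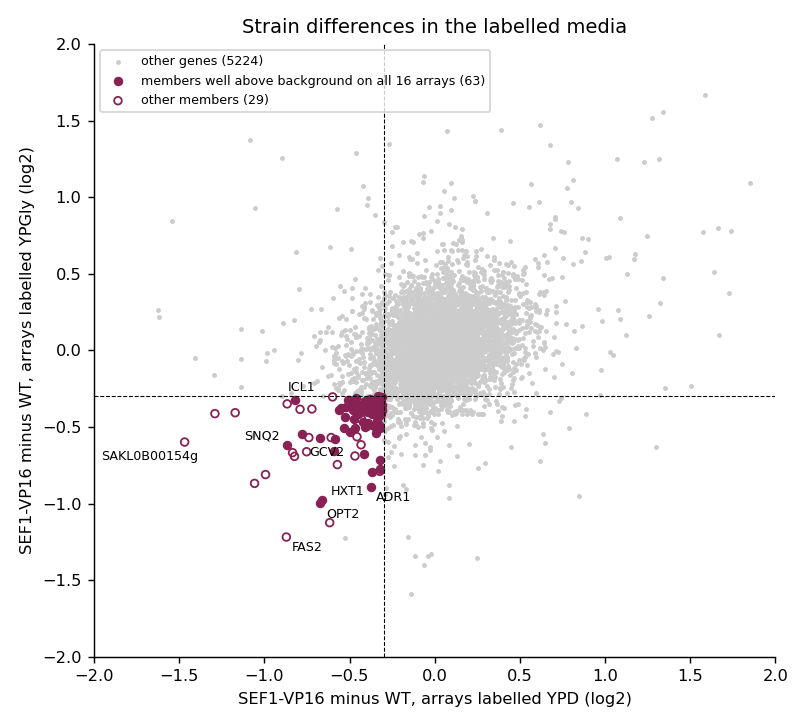
Mean difference SEF1-VP16 minus WT of each gene (log2), arrays labelled YPD on the x axis and arrays labelled YPGly on the y axis, with dashed lines at the threshold of -0.3. The 63 filled and 29 open purple points are the 92 members, the grey points inside their corner are the 3 genes left out by name, and 6 genes lie beyond the plotted range of 2 log2 units.

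From here on the values are log2 processed signals relative to the 75th percentile of each array, with spots that the scanner software flagged as outliers set missing. On the SEF1-VP16 arrays labelled YPD the median of the members, relative to the WT mean of the same medium, lay between -0.56 and -0.40, against -0.04 to 0.12 on the WT arrays. Where labelled YPGly these ranges were -0.55 to -0.37 and -0.10 to 0.08. All 8 SEF1-VP16 arrays thus stood below the WT arrays, a direction that the choice of members fixes, while the median over all genes stayed between -0.07 and 0.05. Below the lowest WT value lay between 61 and 68 members per SEF1-VP16 array labelled YPD (66.3% to 73.9%, against 16.8% to 20.8% of all genes), and between 78 and 83 per array labelled YPGly (84.8% to 90.2%, against 20.9% to 32.0%).

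**Figure D2:**
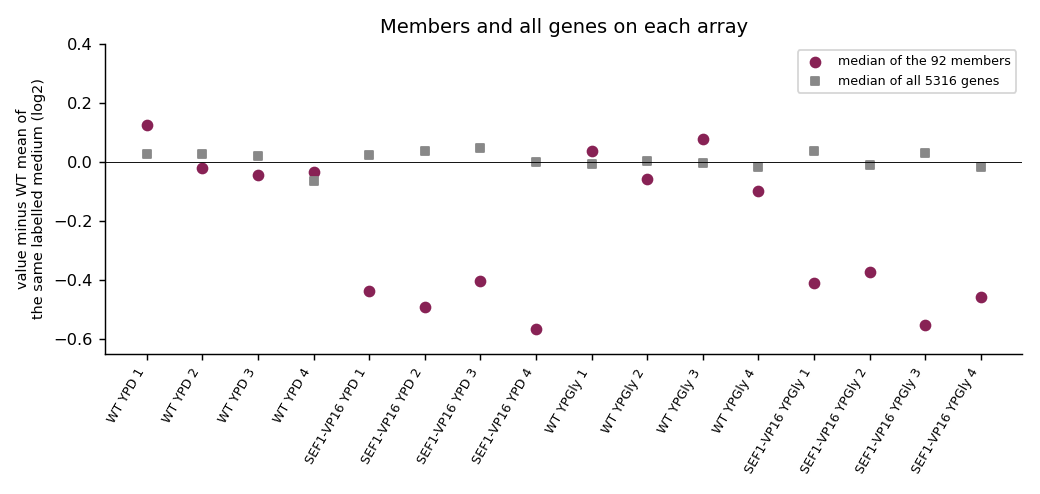
Median over the 92 members (circles) and over all 5316 genes (squares) of the value on each array minus the WT mean of the same labelled medium (log2), for the 16 arrays. The members lie between -0.56 and -0.37 on the SEF1-VP16 arrays and between -0.10 and 0.12 on the WT arrays.

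Testing required a gene to be well above background in all 4 cultures of 1 group or more, which held for 82 members and 5266 genes. A call needed an adjusted p of 0.05 or less in limma and a 1.5-fold change. The members called lower in SEF1-VP16 numbered 10 where labelled YPD (12.2%, against 0.627% of all genes tested) and 15 where labelled YPGly (18.3%, against 0.684%). In both media 5 were called (6.10%, against 0.0949%) and in either 20 (24.4%, against 1.22%); since these contrasts chose the members, nothing is read from the shares. The 5 were OPT2, HXT1, SNQ2, 1 of the pair of ATG22 homologues (SAKL0E02046g) and the unnamed SAKL0B12804g. The last of these was well above background on 0 of 4 SEF1-VP16 arrays labelled YPGly, so only a bound is known there and it allows no fold, and the same holds for SAKL0F10890g among the 15. Over genes well above background on all 8 arrays of the comparison, 8 of 66 members were called lower where labelled YPD (12.1%, against 0.572%) and 10 of 68 where labelled YPGly (14.7%, against 0.502%). Of the 63 members as bright on all 16 arrays, 3 were called in both media, OPT2, HXT1 and SNQ2. The share over all genes as bright on 16 arrays was not taken, and nothing is read from this count. Called higher were 0 members, against 1.48% and 1.61% of all genes tested. All 4 SEF1-VP16 values lay below all 4 WT values in 38 members where labelled YPD (41.3%, against 3.56% of all genes), in 67 where labelled YPGly (72.8%, against 9.71%) and in 33 in both (35.9%, against 1.15%).

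Brightness divided the members. Only 63 of them (68.5%) were well above background on all 16 arrays, compared with 5051 of all genes (95%). No array of a group was well above background for 13 members in SEF1-VP16 labelled YPD and for 17 in SEF1-VP16 labelled YPGly, as against 0 and 1 in WT. Those members have only a bound there, except SAKL0G07436g, which was dim in both strains where labelled YPGly and has no bound there. The bound was above 1 for SAKL0B00154g where labelled YPGly (at least 1.03-fold lower) and for SPO16 where labelled YPD (at least 1.02-fold lower). Neither direction held in every setting. With the normexp correction described next, these log2 strain differences turned to 0.91 for SAKL0B00154g and 0.21 for SPO16. With quantile normalization that of SPO16 was 0.08. No fold is given for the others.

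Most of the 63 brighter members kept the direction of their difference when the background was corrected in another way, and most of the 29 dimmer ones did not. With normexp correction of the spots' median signals, 59 of the 63 were below 0 in both media, and their medians were -0.39 and -0.36 against -0.39 and -0.40 from the processed signal. The other 4 turned positive where labelled YPGly: ICL1 (0.12), RIM4 (0.02) and the unnamed SAKL0A10120g (0.01) and SAKL0B00132g (0.08). Of the 29, only 2 were below 0 in both, and their medians were -0.27 and 0.57 against -0.60 and -0.49. The 236 other genes that were not well above background everywhere moved in the same way, from medians of -0.02 and -0.01 to 0.06 and 0.61. A second probe, which the rule did not use, was available for all members: it was below 0 in both media for 79 (85.9%, against 28.6% of all genes), made up of 62 of the 63 and 17 of the 29. It was at -0.3 or lower in both for 45. Probes of a gene share its RNA sample, so they do not replicate the culture.

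**Figure D3:**
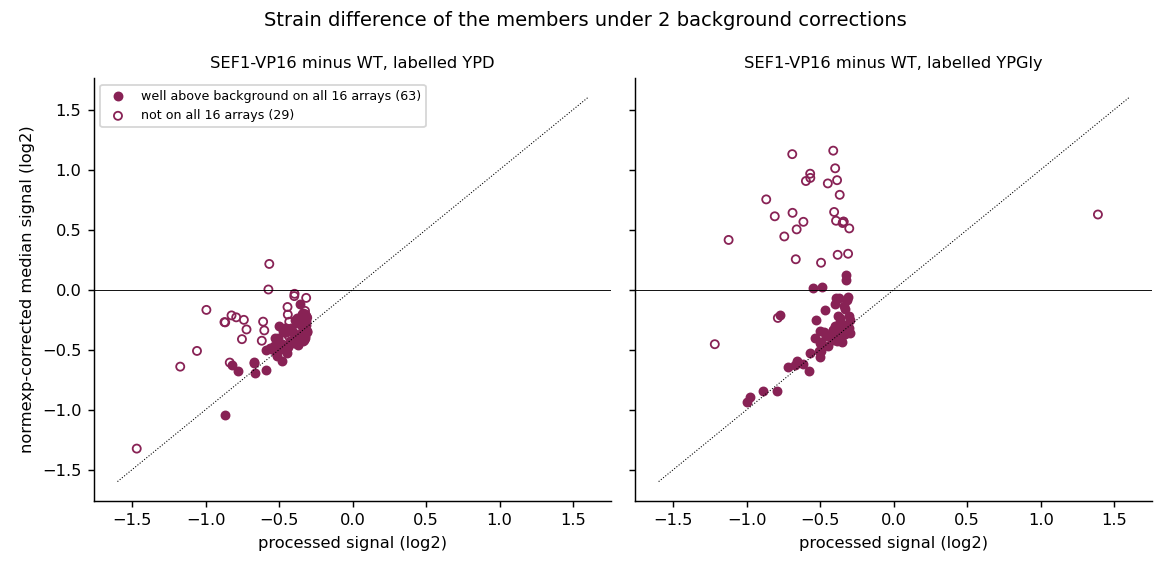
Strain difference (SEF1-VP16 minus WT, log2) of each member from the processed signal (x axis) and after normexp correction of the median signal (y axis), where labelled YPD (left) and YPGly (right), with a dotted line of equality. The filled points, 63 members well above background on all 16 arrays, have medians of -0.39 and -0.36 on the y axis, although 4 of them lie above 0 there where labelled YPGly, and the open points, the 29 others, have a median of 0.57 on the y axis where labelled YPGly.

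Permeases formed the first group of brighter members. OPT2 (SAKL0D09350g), a member of the oligopeptide transporter family, gave -0.68, -1.10, -1.14 and -0.92 in WT and -1.47, -1.70, -1.65 and -1.70 in SEF1-VP16 where labelled YPD. Where labelled YPGly it gave -1.68, -1.77, -1.63 and -1.62 in WT and -2.66, -2.55, -2.75 and -2.73 in SEF1-VP16. The 4 cultures of each strain did not overlap in either medium. The difference was -0.67 (SE 0.10, 1.59-fold lower) and -0.997 (SE 0.10, 1.996-fold lower), and its second probe gave -0.74 and -1.09. Its relative OPT1 (SAKL0G15224g), a proton-coupled peptide transporter in S. cerevisiae, was less even: SEF1-VP16 labelled YPD spanned -3.40 to -0.80 against -2.61 to -1.80 in WT. The strains overlapped there, and the difference of -0.39 had an SE of 0.39. Where labelled YPGly they did not overlap, with -0.23 to 0.05 in SEF1-VP16 against 0.28 to 0.37 in WT.

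The members also held a pair of sugar permease homologues. HXT1 (SAKL0B12540g), a hexose transporter whose closest S. cerevisiae relative by the annotation's note is the high-affinity HXT6, gave -1.08, -1.25, -0.83 and -1.36 in WT and -2.11, -1.88, -2.23 and -2.22 in SEF1-VP16 where labelled YPGly. The strains stood apart there, with a difference of -0.98 (SE 0.18, 1.97-fold lower). Where labelled YPD they overlapped, WT between -2.64 and -1.86 and SEF1-VP16 between -3.25 and -2.49, with a difference of -0.66 (1.58-fold lower). ITR1 (SAKL0E06864g), named for the inositol transporter and noted as similar to a fructose symporter, gave 3.78, 3.57, 3.95 and 3.48 in WT and 2.74, 3.33, 2.66 and 2.88 in SEF1-VP16 where labelled YPGly. That was a difference of -0.79 (SE 0.16, 1.73-fold lower) without overlap, against -0.37 (SE 0.16) with overlap where labelled YPD. Over the 24 genes tested of sugar and polyol transport and glucose sensing, a list to which both belong, 2 were called lower and 0 higher where labelled YPD, and 9 lower and 0 higher where labelled YPGly. The list's median strain difference was -0.12 and -0.43. Hexose transporters form a family of similar sequences and cross-hybridisation between them was not tested, but no member was measured by a probe that the array design marks as cross-hybridising.

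**Figure D4:**
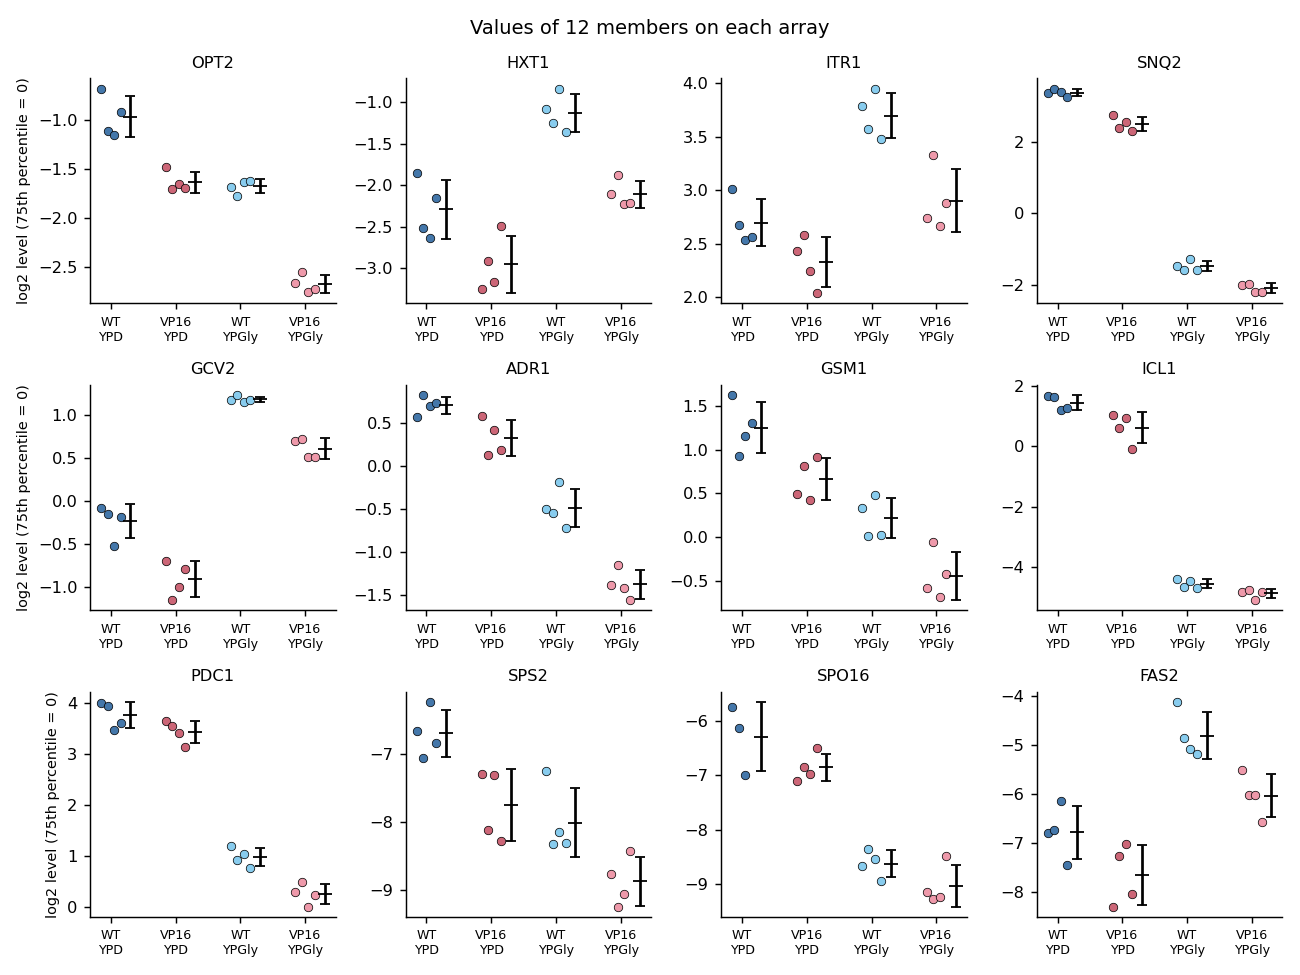
Values of 12 members on each array (log2 relative to the 75th percentile of the array), by strain and labelled medium, with points for the 4 cultures and bars for the mean ± SD. OPT2, SNQ2 and GCV2 show no overlap between strains in either medium, and the values of ICL1 drop from between -0.10 and 1.68 where labelled YPD to between -5.08 and -4.39 where labelled YPGly.

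The exporter SNQ2 (SAKL0H21010g), an ABC transporter of the plasma membrane that pumps out drugs in S. cerevisiae, gave 3.37, 3.50, 3.40 and 3.27 in WT and 2.77, 2.41, 2.56 and 2.32 in SEF1-VP16 where labelled YPD. Where labelled YPGly it gave -1.47, -1.59, -1.29 and -1.59 in WT and -2.01, -1.97, -2.22 and -2.22 in SEF1-VP16. The strains were apart in both media, by -0.87 (SE 0.11, 1.82-fold lower) and -0.62 (SE 0.11, 1.54-fold lower). AUS1 (SAKL0F04312g), an ABC transporter that takes up sterols in S. cerevisiae, differed by -0.38 and -0.32 and overlapped only where labelled YPD. QDR1 (SAKL0E08756g), a multidrug transporter of the major facilitator superfamily, was spread from 1.48 to 3.17 over the SEF1-VP16 cultures labelled YPD and overlapped with WT there. Where labelled YPGly it was tight, 1.63 to 1.69 in SEF1-VP16 against 1.95 to 2.12 in WT. The list of drug and metabolite export, whose names include AUS1 and some regulators besides exporters, had 18 genes tested. Of these, 3 were called lower where labelled YPD and 1 where labelled YPGly, and 0 were called higher.

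Other membrane proteins completed this group. Both genes named ATG22, after a vacuolar amino acid exporter, were members. SAKL0E02046g differed by -0.84 (SE 0.18) and -0.67 (SE 0.18), without overlap in either medium. Of its SEF1-VP16 arrays labelled YPGly, 1 was not well above background, and the difference there turned to 0.25 with normexp. SAKL0C01210g was bright on every array and differed by -0.34 and -0.37 (SE 0.09 for both), again without overlap. ESBP6 (SAKL0F16632g), which resembles monocarboxylate permeases, differed by -0.45 and -0.42 (SE 0.09 for both) and its strains were apart in both media. Of the 10 genes of that family, 2 were called lower where labelled YPD and 1 higher where labelled YPGly. Among 40 genes of amino acid, peptide, nucleobase and vitamin uptake, 4 were called lower and 2 higher where labelled YPD, and 3 lower and 1 higher where labelled YPGly.

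The members with enzyme names came from several pathways rather than from 1. GCV2 (SAKL0A02948g), the P subunit of the mitochondrial glycine decarboxylase, gave -0.09, -0.16, -0.53 and -0.19 in WT and -0.70, -1.15, -1.01 and -0.79 in SEF1-VP16 where labelled YPD. Where labelled YPGly it gave 1.16, 1.22, 1.14 and 1.17 in WT and 0.69, 0.72, 0.50 and 0.50 in SEF1-VP16. No culture of 1 strain reached the other in either medium, and the differences were -0.67 (SE 0.11, 1.59-fold lower) and -0.57 (SE 0.11, 1.49-fold lower). It was the only member among the 20 genes tested of glycine, serine and one-carbon metabolism, of which 3 were called lower where labelled YPD and 0 where labelled YPGly. GLT1 (SAKL0F11638g), glutamate synthase, differed by -0.48 (SE 0.13, overlapping) and -0.39 (SE 0.13, apart). Of 12 genes of arginine and glutamate synthesis, 1 was called lower and 1 higher where labelled YPD, and 1 higher where labelled YPGly. The 36 genes of other amino acid synthesis held 0 members, and 1 was called higher where labelled YPD.

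ICL1 (SAKL0F08756g) encodes isocitrate lyase of the glyoxylate cycle, which lets cells build sugars from acetate and ethanol. It gave 1.68, 1.62, 1.20 and 1.27 in WT and 1.03, 0.61, 0.95 and -0.10 in SEF1-VP16 where labelled YPD, with no overlap and a difference of -0.82 (SE 0.19, 1.77-fold lower). Where labelled YPGly its difference was -0.33 (SE 0.19), and it turned to 0.12 after normexp correction. Of the 10 genes of gluconeogenesis and the glyoxylate cycle, ICL1 was the 1 gene called lower where labelled YPD, against 3 called higher.

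PDC1 (SAKL0F04334g), a pyruvate decarboxylase, which makes acetaldehyde from pyruvate in fermentation, gave 1.19, 0.93, 1.04 and 0.77 in WT and 0.30, 0.50, 0.02 and 0.24 in SEF1-VP16 where labelled YPGly. The strains were apart, with a difference of -0.72 (SE 0.14, 1.64-fold lower). Where labelled YPD they overlapped, with a difference of -0.32 (SE 0.14). AIM17 (SAKL0F05610g), of unknown function in the annotation's note, differed by -0.59 (1.503-fold lower) and -0.58, and was apart in both media. BIO3 (SAKL0H09504g), which acts in biotin synthesis, differed by -0.79 (SE 0.31) where labelled YPGly, or by -0.24 there with normexp. It was not well above background on all 16 arrays. Its YPD difference of -0.32 (SE 0.31) was 0.59 on the other probe and became 0.06 without SEF1-VP16 YPD replicate 1.

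The largest differences among named enzymes lay in dim probes. FAS2 (SAKL0E08580g), noted as similar to the alpha subunit of fatty acid synthase, gave -4.13, -4.86, -5.08 and -5.18 in WT and -5.51, -6.02, -6.02 and -6.57 in SEF1-VP16 where labelled YPGly. These 8 arrays were all well above background and the strains did not overlap, with a difference of -1.22 (SE 0.32, 2.33-fold lower) that was -0.45 with normexp. Where labelled YPD none of the 4 SEF1-VP16 arrays was well above background, and the measured difference was -0.87. SFA1 (SAKL0A00880g), a glutathione-dependent formaldehyde and alcohol dehydrogenase, differed by -0.99 (SE 0.29) where labelled YPD, where 3 WT arrays and 1 SEF1-VP16 array were well above background. With normexp its difference was -0.17 there and 0.61 where labelled YPGly. The list of alcohol, aldehyde and ketone enzymes had 29 genes tested, among them PDC1, SFA1 and also AIM17, whose function the note calls unknown. Of these, 3 were called lower and 1 higher where labelled YPD, and 1 lower and 2 higher where labelled YPGly. The 22 genes of fatty acid metabolism and the peroxisome gave 0 calls where labelled YPD, and 3 lower and 2 higher where labelled YPGly. Thiamine and biotin genes (12 tested) gave 1 call in each direction and then 1 lower; ribonucleotide reductase genes (5) 1 lower where labelled YPD; and reserve carbohydrate and stress genes (22), with 0 members, 1 lower where labelled YPGly.

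The members with regulators' names were led by ADR1 (SAKL0H12958g), a zinc-finger factor that activates genes for ethanol, glycerol and fatty acid use in S. cerevisiae. It gave -0.50, -0.55, -0.19 and -0.72 in WT and -1.38, -1.15, -1.42 and -1.56 in SEF1-VP16 where labelled YPGly, with no overlap and a difference of -0.89 (SE 0.13, 1.85-fold lower). Where labelled YPD the strains overlapped, 0.58 to 0.82 in WT and 0.13 to 0.58 in SEF1-VP16, and the difference was -0.38 (SE 0.13). GSM1 (SAKL0D05236g), a zinc cluster protein like Sef1, gave 1.62, 0.93, 1.16 and 1.30 in WT and 0.49, 0.82, 0.43 and 0.92 in SEF1-VP16 where labelled YPD. The lowest WT culture lay just above the highest SEF1-VP16 culture, and the difference was -0.59 (SE 0.17, 1.51-fold lower). Where labelled YPGly the difference was -0.66 (SE 0.17, 1.58-fold lower), also without overlap. GAT2 (SAKL0E04862g), with GATA-type zinc fingers, differed by -0.32 (overlapping) and -0.77 (apart, 1.71-fold lower), and with normexp by -0.22 and -0.21. Of the 17 carbon-source regulators tested, 0 were called in either direction where labelled YPD, and 3 lower and 1 higher where labelled YPGly. CLN2 (SAKL0C02486g), a G1 cyclin, differed by -0.48 and -0.45 (SE 0.14 for both).

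A word search of the annotation's notes for spores and meiosis, chosen after the values were seen, found 8 of the 56 members with a note (14.3%), compared with 83 of 2398 noted genes (3.46%). They were SPS2, EMI2, FMP45, SPO16, FKS3, MSH6, REC102 and RIM4. The note of MSH6 is on mismatch repair, in mitosis as well as in meiosis. These cultures were not in sporulation medium. FMP45 (SAKL0E13288g), a membrane protein needed for sporulation in S. cerevisiae, differed by -0.42 (overlapping) and by -0.67 (apart, 1.59-fold lower). RIM4 (SAKL0H25366g), an RNA-binding protein of meiosis, differed by -0.33 (overlapping) and -0.49 (apart), the latter 0.02 with normexp. EMI2 (SAKL0C01166g) differed by -0.52 and -0.37, apart in both. Its note likens it to YDR516C, a protein of unknown function needed for early meiotic induction, which has a duplicate, YCL040W, in S. cerevisiae. A meiotic role of EMI2 in L. kluyveri was not tested. SPS2, SPO16 and REC102 were not well above background on all arrays. SPS2 (SAKL0C00968g), of the spore wall, was well above background on 0 of the 8 SEF1-VP16 arrays and was not tested. SPO16 (SAKL0G15576g), of the synaptonemal complex, was likewise well above background on 0 of 8, and its YPD difference of -0.57 was measured without 1 flagged WT spot.

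Of the unnamed members, SAKL0B00154g had the largest difference of the whole group. It gave -3.45, -3.96, -3.73 and -3.54 in WT and -5.83, -4.81, -5.39 and -4.53 in SEF1-VP16 where labelled YPD. The strains were far apart, by -1.47 (SE 0.22, 2.77-fold lower), and the second probe gave -1.49. SAKL0B12804g, noted as without similarity, differed by -0.62 (SE 0.15, 1.53-fold lower) where labelled YPD. Where labelled YPGly it was well above background on 4 WT arrays and 0 SEF1-VP16 arrays, its measured difference was -1.12, and its other probe gave 0.13. SAKL0B00286g and SAKL0B02222g were also well above background on no SEF1-VP16 array, and both overlapped between strains in each medium.

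The members with a flagged spot were 3 in number, SPO16, SAKL0H11902g and SAKL0H13178g. Without flagged spots the YPGly difference of SAKL0H11902g went from -0.38 to 1.39, so its place among the members rested on a flagged spot.

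The difference between the labelled media was not used to choose the members, and it was tested in each strain with limma over all 5266 genes. Most of the tested members were lower on the arrays labelled YPGly. In WT, 45 of 82 were called lower (54.9%, against 20.5% of all genes tested) and 16 higher (19.5%, against 27.4%). In SEF1-VP16, 43 were called lower (52.4%, against 19.9%) and 15 higher (18.3%, against 26.6%). In both strains alike, 42 members were called lower (51.2%, against 17.2%) and 15 higher (18.3%, against 22.4%). Since a dim member could enter the test only through a group where it was bright, the counts were also taken over the genes that were well above background on all 8 arrays of the comparison: 37 of 69 members were called lower in WT (53.6%, against 20.0%) and 33 of 64 in SEF1-VP16 (51.6%, against 19.1%). Called higher in these were 14 (20.3%, against 27.2%) and 13 (20.3%, against 26.8%). Over all 92 members, tested or not, the median difference was -0.76 in WT and -0.72 in SEF1-VP16, against 0.14 and 0.12 over all genes. Slide is confounded with medium in each of these contrasts.

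The members that fell most on the arrays labelled YPGly were ICL1, SNQ2, YIG1, FMP45 and RIM4. ICL1 lay between 1.20 and 1.68 on the WT arrays labelled YPD and between -4.68 and -4.39 on those labelled YPGly. That is 63.5-fold (difference -5.99, SE 0.19, adjusted p = 1.26e-13 in limma), and it was 45.1-fold in SEF1-VP16 (adjusted p = 4.05e-13 in limma), or 28.9-fold with normexp. SNQ2 fell by 4.87 in WT (29.2-fold, adjusted p = 9.57e-16 in limma) and with a difference of -4.62 in SEF1-VP16 (24.6-fold), which the array values above show as a gap without overlap. YIG1 (SAKL0A04554g) went from between 2.30 and 2.79 to between -2.37 and -1.81 in WT (26.7-fold, adjusted p = 6.25e-14 in limma), FMP45 fell 20.9-fold and RIM4 17.6-fold. PDC1 fell 6.84-fold in WT and 8.98-fold in SEF1-VP16 (adjusted p = 5.38e-11 and 9.33e-12 in limma), GAT2 5.90-fold and 8.06-fold (5.13-fold and 5.09-fold with normexp), and the mannosidase AMS1 6.67-fold and 6.30-fold. The regulators ADR1 and GSM1 fell by less, 2.29-fold and 2.06-fold in WT (adjusted p = 3.12e-07 and 4.21e-05 in limma). OPT2 fell 1.64-fold in WT and 2.05-fold in SEF1-VP16 (adjusted p = 8.34e-06 and 1.13e-07 in limma).

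A smaller set went the other way. The unnamed SAKL0A10582g rose from between -1.66 and -1.36 to between 1.03 and 1.16 in WT, 5.89-fold (adjusted p = 1.46e-13 in limma). OPT1 rose 5.23-fold (adjusted p = 4.73e-05 in limma), FAS2 3.90-fold (adjusted p = 4.49e-05 in limma) and GCV2 2.67-fold (adjusted p = 9.83e-09 in limma) in the same strain. In SEF1-VP16, where FAS2 was not well above background on any array labelled YPD, its rise was at least 1.22-fold. HXT1 rose 2.24-fold in WT and 1.80-fold in SEF1-VP16 (adjusted p = 2.95e-05 and 6.07e-04 in limma), AUS1 2.12-fold and ESBP6 1.59-fold in WT. ITR1 rose 1.999-fold in WT (adjusted p = 3.44e-05 in limma), while in SEF1-VP16 its rise of 1.49-fold had an adjusted p of 0.00424 in limma and stayed under the 1.5-fold limit of a call. The members lower in SEF1-VP16 therefore included genes of both directions between the media, and the direction differed within a family: SNQ2 fell and AUS1 rose among the ABC transporters, OPT2 fell and OPT1 rose among the oligopeptide transporters. The lists around them also differed: of 24 sugar transport genes 13 were called lower and 6 higher in WT, of 40 uptake genes 13 each, of 18 genes of the drug and metabolite export list 7 lower and 4 higher, and of 22 fatty acid and peroxisome genes 20 lower and 2 higher.

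**Figure D5:**
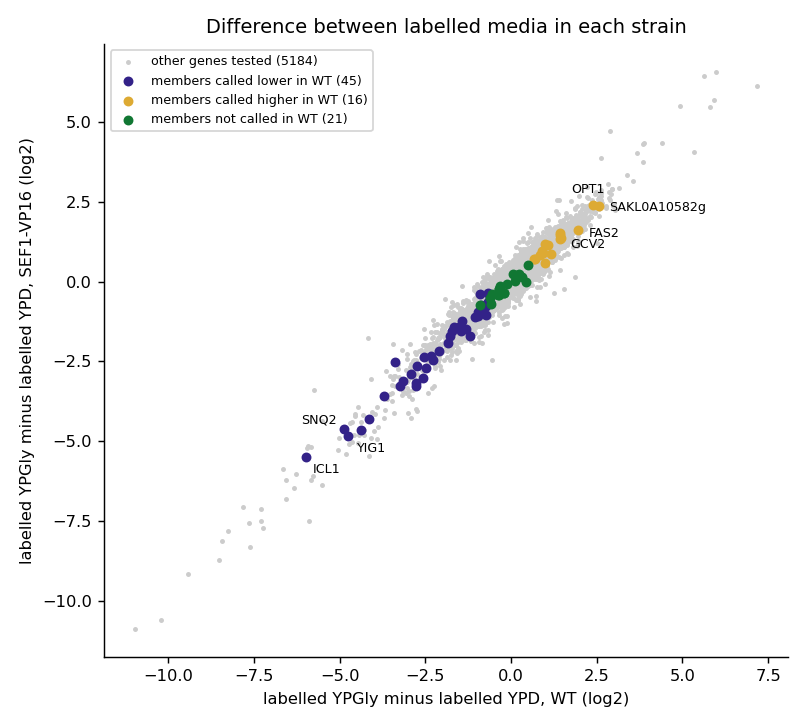
Difference between the labelled media (YPGly minus YPD, log2) in WT (x axis) and in SEF1-VP16 (y axis) for the 5266 genes tested. Blue marks the 45 members called lower in WT, yellow the 16 called higher and green the 21 not called; the members run along the diagonal with the other genes, from ICL1 at -5.99 to SAKL0A10582g at 2.56 on the x axis.

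The strain difference of the members was about as large in either medium, which a rule with the same limit in both media favours. With normexp its median was -0.356 where labelled YPD and -0.272 where labelled YPGly. In the processed signal the strain difference was the lower where labelled YPGly in 43 members and where labelled YPD in 49, and the median of the difference of differences was 0.01. Over the 63 brighter members these counts were 33 and 30. In 3 of the 63 the difference of differences exceeded 2 SE, which is given as a description because the rule used both contrasts. The share of all genes beyond 2 SE was not taken, so nothing is read from this count. OPT2 (-0.33, SE 0.14), ADR1 (-0.51, SE 0.18) and GAT2 (-0.45, SE 0.17) had the larger gap where labelled YPGly, and that of GAT2 was not seen with normexp, as the values above show. The median residual SD was 0.22 over the members and 0.17 over all genes.

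The members were also set beside lists drawn from other experiments of the study, by membership alone. Of the members, 16 (17.4%, or 2.22% of the list) were among the 720 array genes assigned to a Sef1 binding peak, a list that holds 13.5% of all genes. All 16 were among the 63 brighter members (25.4%, against 13.9% of genes as bright). They included OPT2, ICL1, ADR1, GLT1, QDR1, CLN2, EMI2, RIM4, YIG1 and the ATG22 gene SAKL0C01210g, and the other members, HXT1, SNQ2, GCV2 and GSM1 among them, were not on the list. Higher in cells without SEF1 in YPGly were 8 members (8.70%, against 3.12% of all genes, or 4.82% of the list): ADR1, ESBP6, GAT2, GIT1, ICL1, PKP1, YIG1 and YOR152C. Lower in those cells were 2, RIM4 and YLR413W (2.17%, against 1.81%). Of the 16 genes lower without SEF1 in YPD (0.301% of all genes), 0 were members. The list of genes induced by low iron in WT held 7 members (7.61%, against 2.14%, or 6.14% of the list), AMS1, ATG22 (SAKL0E02046g), AUS1, FMP48, GAT2, PDC1 and SNQ2, and the list of genes lowered by low iron in WT held GLT1 and OPT1. Of the 26 copper and iron genes found by name, none was a member; 4 were called higher where labelled YPD and 10 where labelled YPGly, and 0 lower.

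By the order of the systematic names along the chromosomes, 10 members (10.9%) stood directly next to another member, against 3.27% of the other genes. The pairs were ADR1 with YKR070W, AUS1 with PDC1, AIM17 with SAKL0F05632g, SAKL0B00132g with SAKL0B00154g, and SAKL0B02288g with SAKL0B02310g. Among the 20 array genes nearest a chromosome end were 15 members (16.3%, against 6.02% of all genes). Of these, SAKL0B00154g, SAKL0B00198g, SAKL0B00286g, SAKL0B12804g, SAKL0C00374g, SAKL0D00506g, SAKL0F00176g, SAKL0F00308g and SAKL0G19822g were not well above background on all 16 arrays. With normexp they turned positive where labelled YPGly, and so did SAKL0B00132g (0.08), a brighter member near an end. HXT1, ESBP6 and FKS3, also brighter members near an end, stayed negative. The share over genes as bright was not taken.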

How the data were processed

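Dye-labelled cDNA of each culture was hybridised by the authors to a custom Agilent array, and spots were read with Agilent Feature Extraction 10.5.1.1. The deposited scanner files give each spot an intensity (background-subtracted processed signal, median signal and median background). The authors also deposited log2 values scaled to the 75th percentile of each array, from which the rule chose the members. All other values are log2 processed signal minus the 75th percentile of the array, without flagged spots. One limma 3.58.1 fit of 4 group means (R 4.3.3) gave all contrasts, with Benjamini-Hochberg adjustment over 5266 genes. A fold given as "at least" sets the brighter group's mean against, per array, the higher of the dim probe's value and the lowest value well above background. Normexp used an offset of 50 and median signals, as mean signals were not used here. The fit was tested on simulated data.

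The members and the 15 gene lists were chosen with earlier results of these data known. The 30 named members follow a rule: the 12 with the lowest mean strain difference, those called in both media, those in a list, the 2 nearest the threshold, and the 3 with the largest called difference between media in WT in each direction. The rule adds SEF1 and the 2 genes just outside the threshold. Other names were chosen after their values were seen. Names come from the study's tables, part of which was not used here. No genome was used, and no sequences are printed. The labels call the cultures biological repeats.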

Additional observations from a re-analysis of the deposited data

Results flagged for a closer look

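Among 119 sets of 4 arrays of the 30 named members, 5 held 1 culture whose gap to the other 3 exceeded the 95% critical value of Dixon's test, and chance alone flags about 1 in 20 sets. SPS2 stood at -7.25 in WT YPGly replicate 1, above the other 3 cultures at -8.33 to -8.15. SFA1 stood at -8.07 in SEF1-VP16 YPD replicate 1, below -6.62 to -6.55. SAKL0B12804g stood at -6.01 in the same culture, below -5.41 to -5.29. SPO16 stood at -8.48 in SEF1-VP16 YPGly replicate 4, above -9.28 to -9.15. AIM17 stood at 2.77 in WT YPD replicate 1, above 2.30 to 2.34. Of these genes only AIM17 was well above background on all 16 arrays.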

How the results depend on the processing

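The count of 92 members was 47 with normexp correction (32 of them members), 141 on each gene's dimmer probe (45 of them members), 12 at 1.5-fold lower in both media, and 81 to 104 with each culture left out in turn. The 10 members called lower where labelled YPD were 6 with normexp, 26 with no fold limit, 3 in a fit of the 8 arrays alone, and 1 under the methods' t-test with adjusted p-values (11 at its own unadjusted threshold), and 7 to 13 with a culture left out. The 15 called lower where labelled YPGly were 9 with normexp, 35 with no fold limit, and 7 to 16 with a culture left out; 7 was reached without WT YPGly replicate 3 and without SEF1-VP16 YPGly replicate 3. The median strain difference of the members went from -0.44 to -0.356 (YPD) and from -0.414 to -0.272 (YPGly) with normexp, and ran from -0.472 to -0.407 and from -0.464 to -0.388 with a culture left out. The causes were not tested.

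The counts between media held within 1.5 times under every alternative run: with a culture left out they were 43 to 50 lower and 16 to 17 higher in WT, and 41 to 51 lower and 15 to 17 higher in SEF1-VP16. The counts called lower moved more with normexp, to 39 in WT and 30 in SEF1-VP16. Without the brightness required for testing they were 55 and 52. The replicate numbers did not pair the samples (correlations of same-numbered deviations from -0.55 to 0.766). With the number as a replicate block, 10 and 12 members were called lower in SEF1-VP16, 46 and 44 lower and 16 and 15 higher between media, in WT and SEF1-VP16.

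The strain difference turned positive with normexp where labelled YPGly for SAKL0B00154g (0.905), SPS2 (0.752), SFA1 (0.611), SAKL0B12804g (0.414), SPO16 (1.16), SAKL0B00286g (0.647), SAKL0B02222g (1.13), ATG22 (SAKL0E02046g, 0.253), ICL1 (0.118) and RIM4 (0.025), and where labelled YPD for SPO16 (0.214, and 0.081 with quantile normalization). It turned positive on the dimmer probe for SAKL0B12804g (0.127, YPGly), BIO3 (0.593, YPD) and SAKL0H01122g (0.324, YPD), and without SEF1-VP16 YPD replicate 1 for BIO3 (0.0554, YPD; -0.623 to 0.0554 over the cultures left out). Signal over background limits the 29 members that were not well above background on all 16 arrays.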
